A study of Mus musculus with 14 samples.

Results

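Mammary tumours that grew in a stiff collagen gel were set against tumours that grew in a soft one, by the variants that whole-exome sequencing listed in them. The soft tumours are A1, A2 and A3 and the stiff tumours A7, A8 and A9, taken by their titles, so 6 of the 14 samples of the series and 6 of its 12 tumours with a count table. All 6 tumours started as a Balb/c p53null mammary fragment from a syngeneic donor aged 8 to 10 weeks, placed in the cleared mammary fat pad of a wild-type female aged 3 to 4 weeks. Before the fragment, the pad received a hydrogel of rat-tail collagen 1 with basement membrane extract at 20%. For the soft gel the collagen had stood for 10 to 14 days in 0.1% acetic acid; for the stiff gel, 500 mM L-ribose had been added, a sugar that crosslinks collagen fibres. Tumours were taken when their largest diameter reached 2 cm, and the study asked how tissue tension relates to oxidative stress and DNA damage. All groups lack p53, so there is no tumour here with an intact p53 response. The gel acted at implantation, and the labels give no measure of stiffness in the grown tumour and describe no separation of tumour cells from host cells.

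Collagen stiffness is sensed through integrins, focal adhesions and the YAP pathway, and a stiff stroma is a known feature of breast cancer. Oxidised bases, stalled forks and broken ends are mended by separate repair pathways, and p53 normally halts or kills cells that carry such damage. A variant caller reports where a sample differs from the reference genome. That includes changes the mouse strain inherited, changes that arose in the tumour, and errors. The effect type says where in a gene a change lies: in introns or flanks it rarely alters a protein, a missense change swaps an amino acid, and a frameshift or a gained stop usually truncates the product.

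Each count is the number of variants annotated to a protein-coding gene, as the largest value over its transcripts, and a gene that is not listed counts as 0. A variant near several genes is counted in each. The labels give a depth above 50x and 6 Gb for every sample, and 2 Illumina instruments without saying which tumour was read on which. The tables hold no read depth, positions or bases, so the precision of a count is unknown and no coordinates or sequences are given. Exome calls do not measure expression, so the labelled tissue was not checked against marker genes. Whether the tumours of a group came from separate fragments or donors is not in the labels, so p-values reflect only the variation among these 6 samples, which may be technical.

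Trp53 itself, which encodes p53, had 1 missense variant in A2 and 0 exonic variants in the other 5 tumours. Its introns held 1, 0 and 1 variants in A1, A2 and A3, and 4, 0 and 0 in A7, A8 and A9. A deleted allele is not seen in counts of small variants, so these values do not check the genotype.

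One stiff tumour, A9, stood apart before any comparison. Frameshift variants made up 0.375% of its variants, against 0.476% to 0.543% in the other 5 gel tumours. Of the 614 genes with a frameshift variant in each of the other 5, 98 (16.0%) had none in A9. The same measure taken for each of the other tumours gave 1.15% to 4.27%. A9 also lacked whole genes that were full of variants elsewhere. In 39 genes it had at most 10% of the median of the other 5 tumours, each of which held at least 20 variants; A2 had 4 such genes, A8 had 2, and A1, A3 and A7 had 0. These genes were picked after their values were seen and are only described.

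By a pattern on gene symbols, 22 of the 39 genes were set aside as members of large families, such as vomeronasal receptors, or as unnamed gene models. The pattern does not catch all families: the other 17 still hold the clustered histone genes H3c3 and H2bc3, Pira2, Nlrp4b and Adam4. Among the 17, Pop4, a subunit of RNase P, had 74, 92 and 95 variants in A1, A2 and A3, 93 and 110 in A7 and A8, and 0 in A9. Its neighbour Plekhf1, an endosomal protein, had 174 to 259 in the other 5 and 16 in A9. Nek3 and Nek5, adjacent genes for NIMA-related kinases, had 42 to 82 and 21 to 41 in the other 5, and 0 and 2 in A9. Gja1, which encodes the gap-junction protein connexin 43, had 29 to 43 against 2, and Pou5f1, the pluripotency factor Oct4, had 24 to 52 against 1. The adjacent genes Yjefn3, Ndufa13 and Tssk6 each had 23 to 33 variants in the other tumours and 2 in A9. A9 shared this pattern with 1 tumour outside the gel experiment: B5, grown in a Gpx4-knockout host, was at or under the same limit in 33 of the 39 genes and the 5 other tumours in 0. Frameshift variants were 0.395% of B5 and 0.439% to 0.484% of those 5. The part of this in the results was not tested. Values without A9 are given beside many, but not all, of the results that it turns or moves by over 1.5 times. A result without such a value may therefore also depend on A9.

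**Figure D1:**
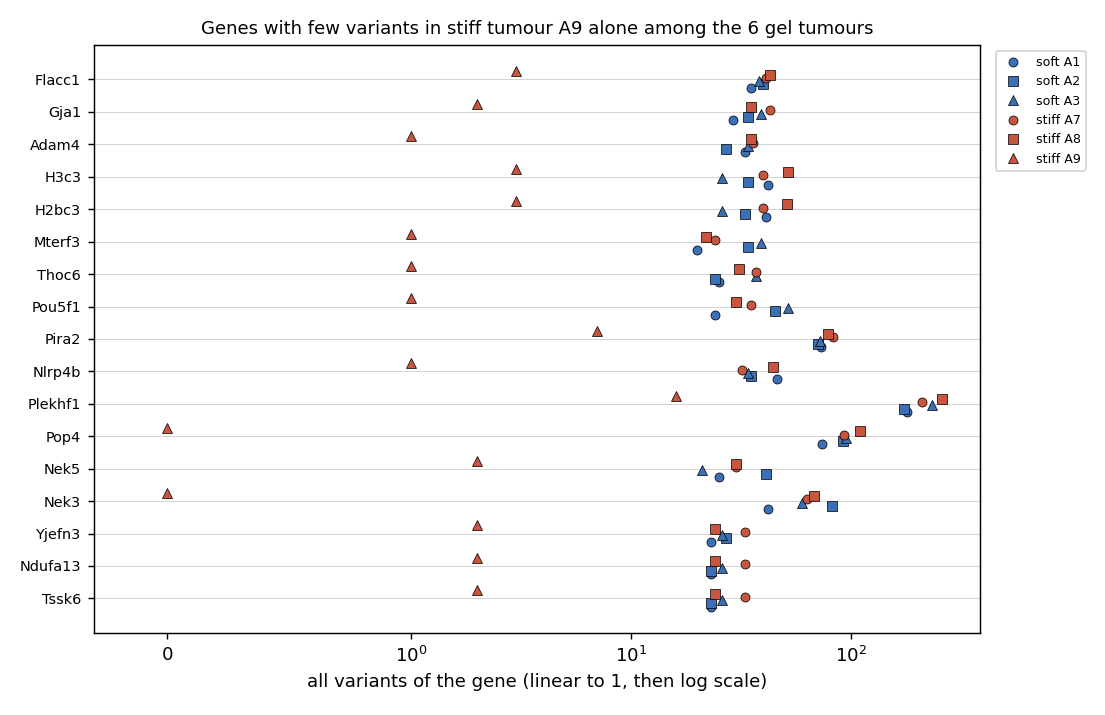
Variants per gene (horizontal axis, linear up to 1 and then logarithmic) in the 6 gel tumours, for the 17 genes low in A9 that the symbol pattern for large families and gene models left in. Blue symbols are soft and red symbols stiff tumours. A9 lies between 0 and 16 in every gene, while the other 5 tumours lie at 20 or more.

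Stiff tumours held fewer variants in total. The counts were 398116, 472210 and 428385 in A1, A2 and A3, and 396613, 373451 and 351115 in A7, A8 and A9. Every stiff tumour was below every soft tumour, although A7 and A1 differed little. The soft mean was 432904 ± 37253 and the stiff mean 373726 ± 22750 (SD, n = 3 each), which differ by -13.7% (two-sided exact permutation p = 0.1). With 3 tumours against 3 there are 20 assignments and 0.1 is the smallest p such a test can give. The change was -11.1% without A9. The sum over genes of the lowest count among the 6, called the floor here, was 273411, or 63.2% of the soft mean. Equal counts need not be the same variants, as no positions are given. Above that floor the counts were 124705, 198799 and 154974 in the soft and 123202, 100040 and 77704 in the stiff tumours. The same floor is taken from every tumour, so the difference in mean and its p are those of the totals. It is -37.1% of the soft mean above the floor only because that base is smaller. This alternative was chosen after seeing the data.

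The lower count was seen in nearly all kinds of variant, to different degrees. Of 27 effect columns, 21 held at least 60 variants over the 6 tumours and were tested. The mean count was lower in stiff tumours for 20 of them and equal for 1, the stop-retained changes. Conservative in-frame deletions, a small class, changed by -25.3%, intron variants by -14.7%, 3′ UTR variants by -12.4%, splice-region variants by -12.0%, and downstream and upstream variants by -10.4% and -10.3%. Missense variants changed by -8.69%, synonymous variants by -8.02% and 5′ UTR variants by -8.27%. Leaving out A9 changed some of these: 5′ UTR variants were then at -4.83%, and frameshift variants went from -13.0% to -0.851% and disruptive in-frame insertions from -15.6% to -0.649%. Conservative in-frame insertions went from -15.2% to -4.62% and disruptive in-frame deletions from -14.1% to -2.98%. Counts of 6 types did not overlap between the groups, each lower in stiff tumours: intron, 3′ UTR, splice region, splice donor, stop gained and conservative in-frame deletion (exact permutation p = 0.1 each).

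**Figure D2:**
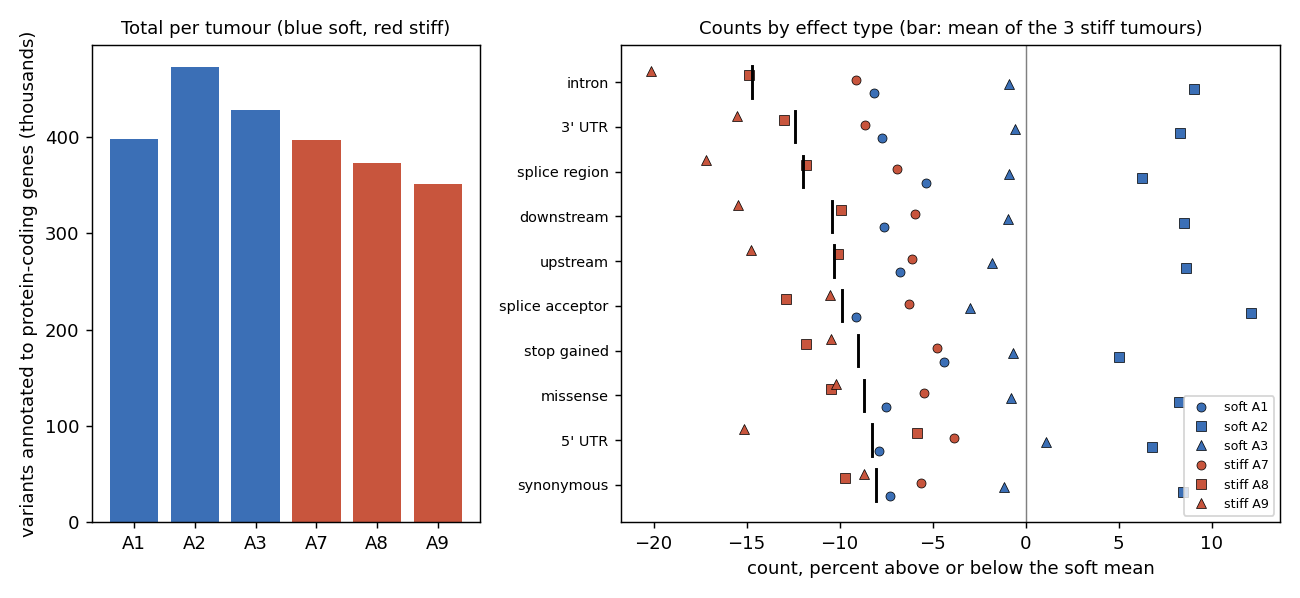
Left, all variants annotated to protein-coding genes per tumour, on the scale printed on the axis, with soft tumours in blue and stiff tumours in red. Right, the count of 10 effect types in each tumour as percent above or below the mean of the soft tumours, with a black bar at the mean of the 3 stiff tumours. The stiff mean lies at -14.7% for introns and at -8.02% for synonymous variants.

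Taken as shares of each tumour's total, the direction therefore turned for most types. The mean share was higher in stiff tumours for 15 of the 21 types and lower for 6. A gene with the same count in all 6 tumours has a log2 share that is 0.21 higher in the stiff group, because the log2 ratio of the mean totals is -0.21. The groups did not overlap in 8 types, 6 higher and 2 lower in stiff tumours. edgeR's quasi-likelihood test over the 21 types called 0 (0% of those tested) after adjustment at 0.05. The smallest adjusted p was 0.18, and 5 types had an unadjusted p under 0.05. DESeq2 called 3 of the same 21, intron, downstream and upstream, with 5 at an unadjusted p under 0.05. Without A9, edgeR called 5, named with their values below.

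Intron variants, the bulk of what lies outside the captured exons, were 71.5%, 71.6% and 71.7% of the total in A1, A2 and A3, and 71.0%, 70.6% and 70.5% in A7, A8 and A9. The 3 soft tumours lay within a narrow band and the stiff tumours all lay under it. The soft mean was 71.6% ± 0.0922 and the stiff mean 70.7% ± 0.262 (SD, n = 3 each, exact permutation p = 0.1; edgeR log2 fold change -0.02, SE 0.01, adjusted p = 0.61). The difference was called by DESeq2 (adjusted p = 3.9e-08) and by edgeR without A9 (adjusted p = 0.029).

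Variants just outside genes were a larger share of the stiff tumours. Downstream variants were 13.7%, 13.6% and 13.7% in the soft and 14.0%, 14.3% and 14.2% in the stiff tumours. Upstream variants were 13.1%, 12.9% and 12.8% in the soft and 13.3%, 13.5% and 13.6% in the stiff tumours. Both were higher in every stiff tumour, with edgeR log2 fold changes of 0.05 (SE 0.02) and adjusted p of 0.18. Without A9, edgeR called downstream variants (log2 fold change 0.05, SE 0.01, adjusted p = 0.029). Upstream variants per 100 downstream variants overlapped between the groups, at 94.8 ± 0.555 in stiff and 94.7 ± 0.855 in soft tumours (SD, n = 3 each).

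Substitutions in coding sequence were also a larger share of stiff tumours. Missense variants were 1.71%, 1.69% and 1.71% in A1, A2 and A3, and 1.76%, 1.77% and 1.88% in A7, A8 and A9. Synonymous variants were 1.34%, 1.32% and 1.33% against 1.37%, 1.39% and 1.496%. A9 was the highest in both, and A7 and A8 still lay above the soft tumours. edgeR gave log2 fold changes of 0.08 and 0.09 (SE 0.03 and 0.04, adjusted p = 0.18 for both), and 0.05 and 0.05 without A9 (adjusted p = 0.029 and 0.043). Missense and synonymous variants kept nearly the same ratio to each other: there were 127 ± 1.17 missense variants per 100 synonymous in stiff and 128 ± 0.456 in soft tumours (SD, n = 3 each, exact permutation p = 0.3). Introns did not keep theirs. Per synonymous variant there were 53.4, 54.2 and 54.0 intron variants in A1, A2 and A3, and 51.9, 50.8 and 47.1 in A7, A8 and A9, without overlap (exact permutation p = 0.1). The difference in mean of this ratio went from -3.91 to -2.51 without A9.

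Frameshift variants split the stiff group. They were 0.476%, 0.492% and 0.483% of the soft tumours, 0.537% and 0.543% of A7 and A8, and 0.375% of A9. So 2 stiff tumours lay above and 1 below all soft tumours, and the means were alike at 0.485% ± 0.0952 and 0.484% ± 0.00798 (SD, n = 3 each, edgeR adjusted p = 0.97). Without A9 the share was 11.6% higher in stiff tumours, and edgeR called it (log2 fold change 0.16, SE 0.02, adjusted p = 0.027). Conservative in-frame insertions, disruptive in-frame insertions and disruptive in-frame deletions had the same order, with A9 lowest of the 6 and A7 and A8 above all soft tumours. Without A9 their shares were 6.98%, 11.8% and 9.12% higher in stiff tumours, and edgeR called none of these 3. With the 39 genes low in A9 left out, frameshift variants were 0.375% of A9 and 0.471% to 0.540% of the other 5.

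Conservative in-frame deletions, which remove whole codons without altering the neighbouring ones, went the other way. There were 116, 131 and 128 in A1, A2 and A3, and 103, 96 and 81 in A7, A8 and A9. Their shares were 0.0291%, 0.0277% and 0.0299% against 0.0260%, 0.0257% and 0.0231%. Of the exonic types tested, it was the one whose share was lower in every stiff tumour, with A9 and without it (exact permutation p = 0.1; edgeR log2 fold change -0.21, SE 0.06, adjusted p = 0.23). Without A9 the share was 10.7% lower. Among variants above the floor of the 6 tumours the direction turned, with a share 9.07% higher in stiff tumours and overlapping groups (exact permutation p = 0.6). This turn was not particular to the type. Above the floor, introns fell from 70.7% to 66.8% in the mean, and every other tested type had a higher mean share in stiff tumours.

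**Figure D3:**
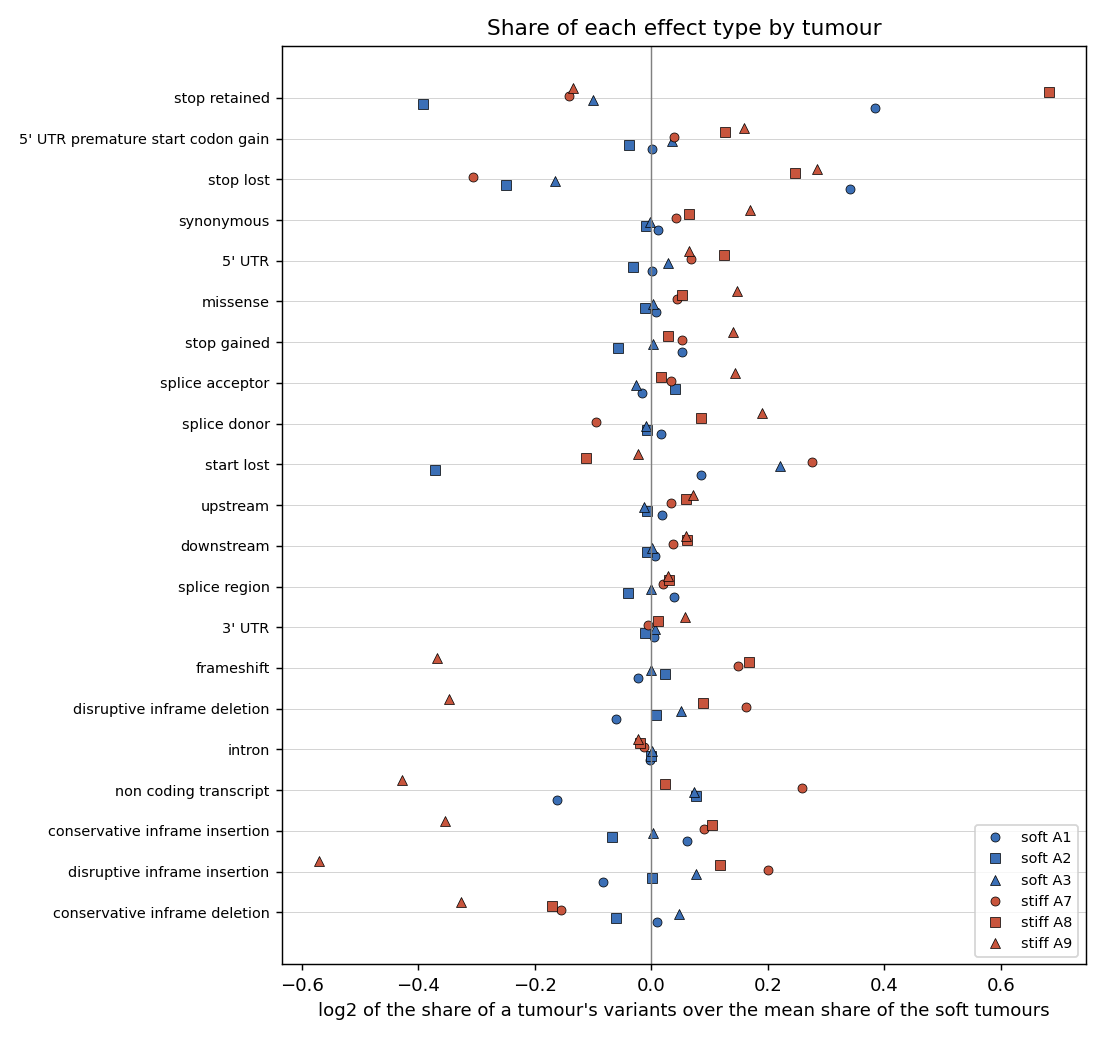
Share of each effect type in each tumour, as log2 over the mean share of the soft tumours (horizontal axis), for the 21 types with at least 60 variants; rows are ordered by the change in mean share. Blue symbols are soft and red symbols stiff tumours. For frameshift variants A9, at 0.375% of its total, lies left of the soft tumours, and A7 and A8, at 0.537% and 0.543%, lie right of them.

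Untranslated regions differed by end. Variants of the 5′ UTR, which lies between the start of the transcript and the first codon, were 0.669%, 0.654% and 0.682% of the soft and 0.701%, 0.729% and 0.699% of the stiff tumours. All 3 stiff tumours were above all soft tumours, by 6.17% in the mean (edgeR log2 fold change 0.09, SE 0.03, adjusted p = 0.18). Variants that create a new upstream start codon were 0.0766%, 0.0745% and 0.0784% against 0.0787%, 0.0835% and 0.0854%, also without overlap, though A7 exceeded A3 by little and the groups overlapped once the 39 genes low in A9 were left out. As a part of 5′ UTR variants they differed less: 11.4, 11.4 and 11.5 per 100 in the soft and 11.2, 11.5 and 12.2 in the stiff tumours. The 3′ UTR share overlapped, at 3.09%, 3.06% and 3.10% against 3.07%, 3.11% and 3.21%. Its difference in mean went from 0.0476 to 0.00796 percentage points without A9. Per 100 synonymous variants, 3′ UTR variants were lower in every stiff tumour, at 224.4, 223.5 and 214.4 against 230.7, 231.5 and 233.2 (exact permutation p = 0.1).

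Splice and stop changes did not separate the groups by share of total. Splice donor and acceptor variants, at the invariant bases that bound an intron, averaged 0.0499% ± 0.00493 and 0.0513% ± 0.00248 in stiff tumours and 0.0477% ± 0.000471 and 0.0490% ± 0.00124 in soft tumours (SD, n = 3 each), and the groups overlapped. Splice-region variants were 0.408% ± 0.00143 against 0.400% ± 0.0110. Stop-gained variants numbered 488, 536 and 507 in the soft and 486, 450 and 457 in the stiff tumours, lower in every stiff tumour by count, but their share overlapped at 0.123%, 0.114% and 0.118% against 0.123%, 0.120% and 0.130%. Per 100 synonymous variants they were 8.77 ± 0.156 in stiff and 8.88 ± 0.280 in soft tumours. The smallest edgeR adjusted p among these 4 types was 0.41.

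Changes of the first and last codon were few. Start-lost variants numbered 22, 19 and 26 in A1, A2 and A3, and 25, 18 and 18 in A7, A8 and A9. Stop-lost variants numbered 33, 26 and 25 against 21, 29 and 28, and stop-retained variants 13, 9 and 10 against 9, 15 and 8. Some sat in the same gene in every tumour. A stop-lost variant stood in Asf1b, a histone chaperone, Fbxw19 and Krtcap3 in all 6 tumours, 1 each. A stop-retained variant stood in Cftr, the chloride channel of cystic fibrosis, and in Trim11, an E3 ligase, in all 6. Start-lost variants were listed in Vps33b, a vesicle-fusion protein, as 2 in every tumour but A9, which had 0, and in Dusp12 as 1 in every tumour. Initiator-codon variants numbered 1 to 4 per tumour, with 1 in Pfdn2, a prefoldin subunit, in every tumour. Start-retained variants numbered 4 to 7, with 1 in Nit1 in every tumour.

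The rarest types involved single genes. A whole-exon loss with a 3′ UTR truncation was listed in Vrk3, a kinase of the vaccinia-related family, in 5 tumours and not in A9. Siglece, a sialic-acid receptor of myeloid cells, had an exon loss and a 5′ UTR truncation in A7 (1 each) and A8 (2 each) and 0 in the other 4 tumours. Exon-loss variants totalled 2, 1 and 2 in the soft and 2, 5 and 1 in the stiff tumours. Non-coding transcript exon variants were 0 in all 6.

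Gene by gene, 12 classes of variant were tested with edgeR, scaled to each tumour's total, over genes with at least 3 variants across the 6 tumours. It called 0 genes in every class at an adjusted p under 0.05 (0% in each of the 12), from 329 genes tested for start and stop changes to 17062 for flanking variants. At an unadjusted p under 0.05 there were 3 genes for start and stop changes, 20 for splice, 26 for 5′ UTR, 27 for coding indels, 31 for HIGH impact, 51 for synonymous, 54 for missense, 109 for protein-altering, 140 for 3′ UTR, 354 for exonic, 942 for flanking and 1165 for intron variants. DESeq2 called 16 genes for introns, where its own filter left 11716 of the 15108 genes without an adjusted p, and 3 for flanks and 0 in the other 10 classes, where 0 to 74 had an unadjusted p under 0.05. The split of the unadjusted edgeR results moved with the scaling: for introns it was 456 higher and 709 lower in stiff tumours, and 153 higher and 1112 lower with equal library sizes. For exonic variants it was 136 and 218, and 85 and 278, for flanks 422 and 520, and 180 and 712, and for protein-altering variants 51 and 58, and 32 and 74. The median log2 fold change over the exonic genes was 0.15 scaled to totals and -0.01 with equal library sizes, so counts rather than fold changes are given for genes.

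Genes whose counts did not overlap between the groups were counted as a description. Introns had the most: of 15108 genes, 1245 (8.24%) had all 3 stiff counts under all 3 soft counts, and 299 (1.98%) the reverse. Flanks had 822 lower (4.82%) and 310 higher (1.82%). By share of total both turned, to 872 lower and 1389 higher for introns and 687 lower and 1509 higher for flanks. Among 9037 genes with exonic variants, 356 were lower (3.94%) and 137 higher (1.52%); by share of total that became 302 lower and 995 higher. For 3′ UTR variants 128 genes were lower (3.03%) and 55 higher (1.3%). By share of total these were 117 lower and 625 higher. By count, the 5′ UTR had nearly equal numbers, 16 lower (1.04%) and 17 higher (1.11%), along with start and stop changes at 4 and 4 (1.22% each). By share of total they were 15 lower and 410 higher, and 4 lower and 181 higher. With A9 left out, counts gave 1928 lower and 627 higher for introns, 1433 and 725 for flanks and 484 and 334 for exonic variants. The 3′ UTR then had 174 lower and 161 higher, the 5′ UTR 24 and 47, and start and stop changes 4 and 5.

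Coding classes had small numbers in both directions by count. Protein-altering variants gave 116 genes lower (2.69%) and 51 higher (1.18%), missense 65 lower (2.1%) and 33 higher (1.07%), and synonymous 56 lower (2.14%) and 32 higher (1.22%). HIGH-impact variants gave 30 lower (1.83%) and 18 higher (1.1%), coding indels 28 lower (1.87%) and 13 higher (0.87%), and splice variants 23 lower (1.9%) and 10 higher (0.827%). Shares of total again turned the balance, to 106 lower and 768 higher for protein-altering, 59 and 707 for missense, 54 and 757 for synonymous, 28 and 462 for HIGH-impact, 28 and 374 for coding indel and 23 and 431 for splice variants. A gene with equal small counts in all tumours is higher by share in a tumour with a lower total. Without A9, 3 tumours stand against 2. Counts were then nearly balanced at 145 lower and 143 higher for protein-altering, 87 and 88 for missense and 72 and 77 for synonymous variants. They were 40 and 43 for HIGH-impact and 29 and 27 for splice variants. Coding indels turned, to 33 lower and 47 higher.

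**Figure D4:**
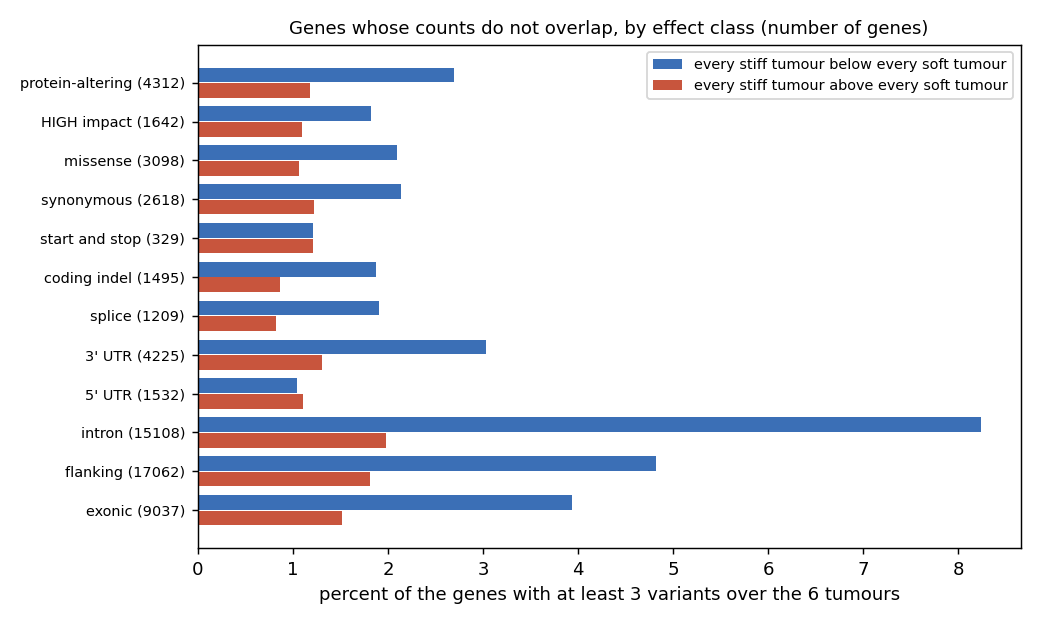
Percent of genes (horizontal axis) whose 3 stiff counts all lie under (blue) or all lie over (red) the 3 soft counts, for 12 effect classes with the number of genes in each. Introns reach 8.24% lower, while the 5′ UTR has 1.04% lower and 1.11% higher.

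Among genes with fewer missense changes in stiff tumours, Lrp2 was the clearest. Lrp2 encodes megalin, a large endocytic receptor, and had 9, 11 and 8 missense variants in A1, A2 and A3, and 3, 2 and 1 in A7, A8 and A9. The groups were far apart relative to their spread, and the gene had the smallest edgeR p of its class, yet the adjusted p was 0.95. Ankrd11, a chromatin regulator, had 9, 5 and 7 against 1, 2 and 1. Map1b, which binds microtubules, had 5, 6 and 2 against 0, 0 and 0 missense and 8, 9 and 3 against 0, 0 and 1 synonymous variants. Neither kind overlapped between the groups in Map1b. Ubr4, a ubiquitin ligase, had 10, 7 and 12 synonymous variants against 4, 5 and 5, and Eif4g3, a translation initiation factor, had 6, 13 and 6 against 5, 4 and 3.

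Genes with more substitutions in stiff tumours included Nit1, an amidase that clears deaminated glutathione. Nit1 had 31, 29 and 22 missense variants in the soft and 38, 34 and 37 in the stiff tumours. It was among the named genes of 6 classes, several of which count the same variants. Mylk2, a myosin light-chain kinase of skeletal muscle, had 2, 2 and 2 against 5, 4 and 4 missense variants, and Fam72a had 0, 0 and 0 against 1, 4 and 2. Trpv3, a cation channel of keratinocytes, had 0, 0 and 1 against 5, 7 and 2 synonymous variants. Cbfa2t3, a transcriptional corepressor, had 1, 1 and 1 against 5, 2 and 2, and lies 3 places from Ankrd11 in the gene order, where counts went the other way. edgeR's adjusted p was 0.95 for each of the missense and synonymous genes named here.

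Other genes were named for HIGH-impact variants and for coding indels, which include in-frame changes. Notch3, a Notch receptor, had 4, 1 and 2 HIGH-impact variants in the soft tumours and 0 in each stiff tumour. Usf3 had 3, 4 and 1 against 0 in each, and Med10, a subunit of the Mediator complex, had 4, 4 and 4 against 0, 2 and 1. Higher in stiff tumours were Dock10, a guanine nucleotide exchange factor, with 2, 0 and 2 against 4, 4 and 3, and Cit, the citron kinase of cytokinesis, with 0 in each soft tumour against 2, 1 and 1. The low value of Dock10 in A2 belongs to a wider gap: A2 had 17 variants of all kinds in Dock10, against 194 to 226 in the other 5 tumours. Ift140, an intraflagellar transport protein, had 1 coding indel in each soft and 3 in each stiff tumour. Ticrr, which acts in replication initiation, had 3 in each soft tumour and 0, 1 and 0 in the stiff tumours. Alpk2 had 2, 1 and 5 against 0 in each, and Slc7a7, an amino acid transporter, had 0 in each against 1, 3 and 2. These were counts of a few variants, with edgeR adjusted p of 0.95 for each.

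Start and stop changes separated the groups in 8 genes. In Cnksr1, a scaffold of Ras signalling, 1 was listed in each stiff and 0 in each soft tumour, and in Misp, a spindle-positioning protein, the reverse held. Med10 also had 1 in each soft and 0 in each stiff tumour. Hnrnpr, an RNA-binding protein, had 2, 3 and 2 against 1 in each. edgeR gave an adjusted p of 0.90 for each of these.

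Splice changes that were absent from all soft tumours stood in Cep350, a centrosomal protein, with 3, 2 and 1 in A7, A8 and A9. Tspoap1, also at 0 in each soft tumour, had 2, 2 and 1. Lower in stiff tumours were Slc28a2, a nucleoside transporter, with 4, 2 and 6 against 1, 0 and 1, Herc2, a ubiquitin ligase that acts at DNA breaks, with 1, 1 and 5 against 0 in each, and Trim67 with 2, 3 and 1 against 0 in each. The adjusted p was 0.95 for each of these genes in edgeR's test.

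In the 3′ UTR, some genes had variants in only one of the groups. Wbp11, a splicing factor, had 0 variants of its 3′ UTR in each soft tumour and 7, 8 and 7 in A7, A8 and A9, the smallest edgeR p of that class (0.00031, adjusted p = 0.79). Cdh7, a cadherin, had 0 in each soft tumour against 6, 7 and 4. Pggt1b, the β subunit of the enzyme that attaches geranylgeranyl lipids to small GTPases, had 3, 0 and 1 against 11, 7 and 7. Veph1 had 9, 20 and 12 against 0, 2 and 0, and Srpr, a subunit of the signal recognition particle receptor, had 25, 23 and 34 against 16, 9 and 12. In the 5′ UTR, Plxna4, a semaphorin co-receptor, had 5, 10 and 8 against 1, 0 and 0, and Cbx1, the heterochromatin protein HP1β, had 6, 4 and 7 against 0, 0 and 2. Slco5a1, of the organic anion transporter family, had 10, 11 and 11 against 19, 19 and 12. Vstm2b had 25 in each soft tumour, 24 in A7 and A8, and 13 in A9, so its lack of overlap rests on 1 variant apart from A9.

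**Figure D5:**
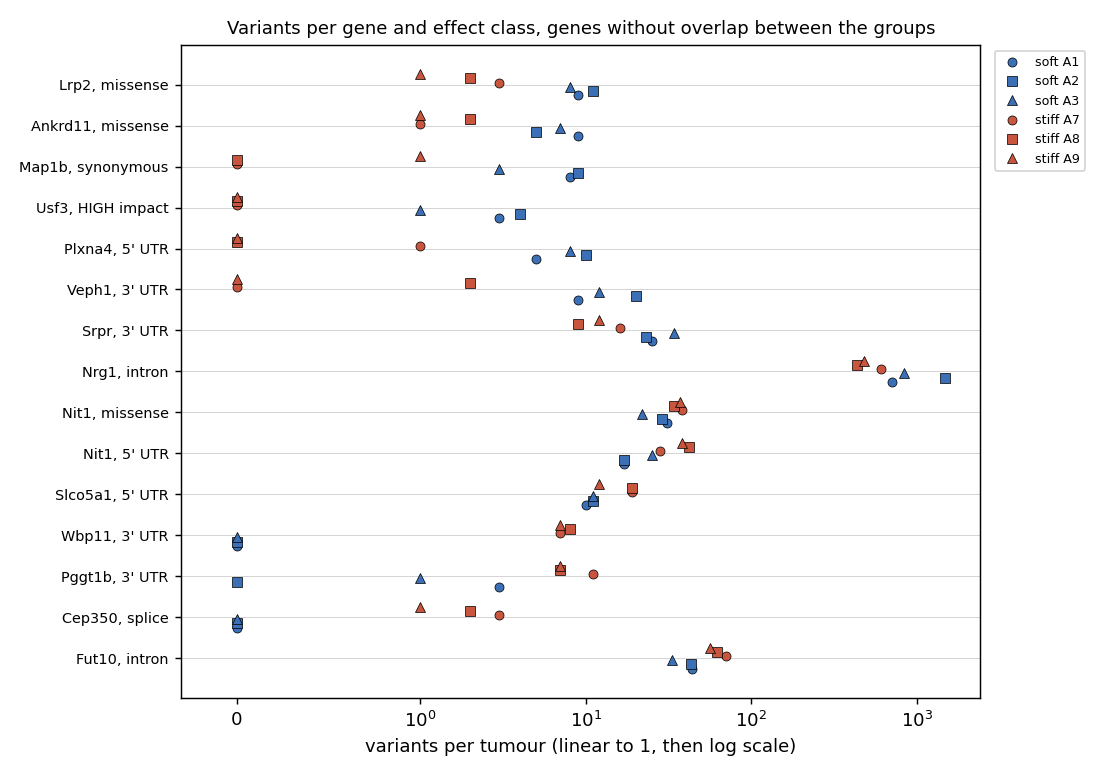
Variants per tumour (horizontal axis, linear up to 1 and then logarithmic) for 15 pairs of a gene and an effect class whose counts do not overlap between soft (blue) and stiff (red) tumours. The first 8 rows are lower in every stiff tumour and the other 7 higher; Wbp11 has 0 in each soft tumour and 7 to 8 in the stiff tumours.

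For introns, the rule of largest difference in mean count favours genes with many variants. Nrg1, whose product neuregulin 1 is a ligand of ErbB receptors, had 705, 1483 and 835 intron variants in A1, A2 and A3, and 609, 436 and 483 in A7, A8 and A9. Dlg2, a synaptic scaffold, had 507, 587 and 671 against 449, 363 and 266. Cntnap2, a neuronal adhesion protein, had 443, 606 and 563 against 366, 363 and 268, but the sign of its difference turned (to 12.7) when the median over transcripts was used. The next gene to Nrg1, Fut10, a fucosyltransferase, went the other way with 44, 43 and 33 against 70, 62 and 56. edgeR's adjusted p was 0.46, 0.50, 0.44 and 0.39 for these 4 genes.

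The 16 genes that DESeq2 called for introns were all lower in stiff tumours, and edgeR called 0 of them with its filter and all 6 tumours. Without the filter on low counts, edgeR called 5 of them: Samd9l, Stt3b, Tmem135, Zbtb7c and Zfp536 (adjusted p = 0.021 to 0.041). The 16 included Zbtb7c, a transcription factor, with 338, 435 and 375 against 231, 191 and 133 (DESeq2 log2 fold change -0.84, adjusted p = 0.0011). Zfp536 had 264, 324 and 286 against 180, 137 and 104. Grin2b, a glutamate receptor subunit, had 334, 440 and 380 against 202, 257 and 180, and Trpm3, a cation channel, had 291, 356 and 355 against 151, 232 and 115. Stt3b, a catalytic subunit of the oligosaccharyltransferase, had 76, 71 and 75 against 18, 28 and 26. Samd9l, an interferon-induced restriction factor, had 52, 19 and 58 against 0, 4 and 1. Soft tumour A2 fell below A1 and A3 in Samd9l, as in the channel gene Kcnd2 (82, 12 and 87 against 6, 11 and 12), where A2 lay among the stiff tumours. Without A2, edgeR called 6 genes for introns, all lower in stiff tumours, and these included Samd9l, Kcnd2 and Foxp2, a transcription factor with 162, 42 and 164 against 47, 46 and 37.

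A7 had the same role in Cdk6, the kinase that drives entry into the cell cycle. Cdk6 had 78, 85 and 98 intron variants in the soft tumours, 96 in A7, and 10 and 8 in A8 and A9. edgeR called it when A7 was left out (adjusted p = 0.023 for introns and 0.037 for flanks) and not with all 6 tumours.

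Flanking variants gave the smallest adjusted p of any class, in Pkmyt1, which encodes the kinase Myt1 that holds Cdk1 inactive before mitosis. Pkmyt1 had 20, 30 and 20 flanking variants in A1, A2 and A3, and 2, 1 and 2 in A7, A8 and A9 (edgeR log2 fold change -3.50, SE 0.39, adjusted p = 0.057). It passed in edgeR with all 12 tumours in the fit (adjusted p = 0.0099) and without the filter on low counts (adjusted p = 0.00026). It was not among the 3 flanking genes that DESeq2 called. The smallest edgeR adjusted p of the flanking class was 0.34 without A1 and 0.11 with a minimum sum of 12. The adjacent gene Paqr4, a progestin and adipoQ receptor, had 20, 15 and 20 intron variants against 0, 0 and 1, the smallest p of the intron class (edgeR adjusted p = 0.37). Kremen2, a receptor of the Wnt inhibitor Dickkopf that follows Paqr4, had 20, 34 and 51 flanking variants against 13, 1 and 2. Flanking variants of one of these genes can be intron variants of the next, so the 3 genes are not independent, and Pkmyt1 and Paqr4 were named after their values were seen.

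Higher flanking counts lay in another cluster. Pfdn2 had 427, 450 and 405 flanking variants against 491, 501 and 521, Dedd, a death-effector-domain protein, 299, 301 and 277 against 337, 379 and 353, and Usf1, a transcription factor, 153, 173 and 170 against 210, 190 and 191. The exonic variants of Dedd went the other way, with 1, 15 and 16 in the soft and 0 in each stiff tumour, and edgeR called them when the filter was left out (adjusted p = 0.0011). These 3 genes sit within 6 places of Nit1 in the gene order, a stretch dense in variants in every tumour. In the same stretch Arhgap30, a GTPase-activating protein, had 143, 164 and 138 flanking variants against 108, 120 and 104. Nectin4, an adhesion molecule, had 111, 125 and 126 exonic variants against 99, 105 and 95. Scaled to totals, the edgeR log2 fold change was -0.21 for Arhgap30 (SE 0.12, adjusted p = 0.77) and -0.06 for Nectin4 (SE 0.10, adjusted p = 0.93). For the flanking variants of Pfdn2, Dedd and Usf1 the edgeR adjusted p was 0.77 each.

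Variants of all kinds were then read along the gene order of a GRCm38.p6 gene table, in which 96.1% of 19679 genes were found by symbol. By share of total, 1118 genes (5.68%) were lower and 1724 (8.76%) higher in every stiff tumour. Runs of at least 4 neighbours with the same direction numbered 21, of which 5 were lower and 16 higher. Neighbours share flanking variants, and no test was made. All 5 lower runs were also lower by count in every stiff tumour, and 7 of the 16 higher runs were higher by count.

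The longest lower run went from Mtpn through Chrm2, Ptn and Dgki to Creb3l2, where the summed counts were 114, 101 and 129 in the soft and 47, 57 and 58 in the stiff tumours. Ptn encodes the growth factor pleiotrophin. The run from C2cd5 through Etnk1 and Sox5 to Bcat1, an enzyme of branched-chain amino acids, had 159, 177 and 145 against 99, 95 and 74. From Pax4 through Snd1 and Lrrc4 to Lep, which encodes leptin, there were 87, 43 and 70 against 15, 28 and 21. From Ndrg1, a stress-responsive gene, through St3gal1 and Zfat to Khdrbs3, there were 156, 186 and 139 against 84, 69 and 85. Of the higher runs, the one from Pdcd6 through Sdha, a subunit of succinate dehydrogenase, and Ccdc127 to Lrrc14b had 1, 2 and 1 against 9, 10 and 24. The run from Donson, a replication-fork protein, to Atp5o had 99, 117 and 96 against 149, 132 and 129. The longest, 21 clustered γ-protocadherin genes, was higher by share, and its counts overlapped.

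Repair and damage genes were described as 6 lists, each by its exonic variants, that is coding and UTR variants. edgeR called 0 members of any list, for exonic or intron variants. Here and in the lists below, numbers of members higher or lower are by mean count. They are not scaled to the totals, which were lower in stiff tumours, and the same numbers over all genes are not given. Damage checkpoint genes, which sense breaks and stalled forks, had 15, 15 and 13 exonic variants in the soft and 21, 30 and 20 in the stiff tumours, without overlap. The stiff mean was the higher one for 9 of the 20 members and the lower one for 3, and the median log2 fold change over the 10 tested was 0.34, beside 0.15 over all exonic genes. Mdm4, an inhibitor of p53, had 4, 0 and 3 against 7, 11 and 3, and Mdc1, a scaffold at broken ends, 1, 2 and 1 against 1, 8 and 1. With the median over transcripts, the list's difference in mean went from 9.33 to -0.167 and that of Mdm4 to -0.333, so the direction depends on how transcripts are combined.

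End joining genes, which rejoin broken ends without a template, had 46, 48 and 43 exonic variants against 48, 48 and 53. Their introns had 280, 293 and 286 against 332, 302 and 317, higher in every stiff tumour while introns as a whole were lower (exact permutation p = 0.1). The mean intron count was higher for 10 of the 12 members and lower for 1, and the median log2 fold change over the 11 tested was 0.62, beside 0.04 over all intron genes. Rif1, which protects ends from resection, had 1, 2 and 1 exonic variants against 1, 1 and 6, and Xrcc6, the Ku70 subunit, 0, 0 and 1 against 0, 0 and 4; the sign of both differences rested on A9 and was negative without it (-0.333 each).

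In the other 4 repair lists the exonic sums overlapped. Their median log2 fold changes were 0.21 for homologous recombination, -0.08 for mismatch repair, 0.79 for base excision and -0.13 for nucleotide excision repair, beside 0.15 over all exonic genes. Homologous recombination and Fanconi genes had 32, 29 and 17 exonic variants against 22, 18 and 25, with 10 of 29 members higher and 10 lower in the mean. Fancl, the ubiquitin ligase of the Fanconi pathway, had 8, 5 and 0 against 1, 0 and 0, and Fancc 5, 1 and 3 against 1, 1 and 2. Mismatch repair and replicative polymerase genes had 41, 56 and 34 against 42, 41 and 34, with 3 of 16 higher and 10 lower. Pole, the leading-strand polymerase, had 7, 7 and 8 against 12, 10 and 8, and the mismatch repair gene Pms1 had 1, 6 and 3 against 2, 1 and 0. Base excision repair genes, which remove oxidised bases, had 8, 19 and 17 against 10, 16 and 17. Nthl1, a glycosylase for oxidised pyrimidines, had 1, 1 and 2 against 3, 2 and 4, and Parp2, which signals strand breaks, 0, 3 and 2 against 0 in each. Nucleotide excision repair and translesion genes had 40, 50 and 31 against 30, 36 and 32, with 5 of 19 higher and 10 lower. The translesion polymerase gene Poli had 5, 6 and 0 against 3, 0 and 0.

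Genes of lipid peroxide defence did not separate the groups by count. The ferroptosis and antioxidant list had 32, 29 and 31 exonic variants against 38, 31 and 30, with 16 of 32 members higher and 9 lower; the share of total was 23.4% higher in stiff tumours, without overlap. The median log2 fold change over the 16 tested genes was 0.79, beside 0.15 over all exonic genes. In introns the list ran the other way, with 8 members higher and 19 lower. The median log2 fold change over the 27 tested for introns was -0.22, beside 0.04 over all intron genes. Slc7a11, the cystine importer that feeds glutathione synthesis, had 3, 7 and 15 exonic variants against 3, 0 and 3. Fth1, the heavy chain of ferritin, had 5, 0 and 1 against 10, 8 and 0.

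Genes of the matrix and of force sensing were next. Collagen and matrix genes had 154, 219 and 159 exonic variants in the soft and 171, 142 and 100 in the stiff tumours, with 15 of 43 members higher and 18 lower. The median log2 fold change was 0.20 for this list, 0.24 for adhesion and mechanosignalling, -0.03 for drivers and 0.20 for very long genes. Tnxb, which encodes tenascin-X, had 81, 102 and 85 against 103, 66 and 37. Without A9 the difference in mean went from -39.7 to -20.8 for the collagen list and from -20.7 to -4.83 for Tnxb. Hspg2, which encodes perlecan, had 11, 29 and 4 against 3, 4 and 4. Introns of the collagen and matrix list had 1462, 1620 and 1567 against 1427, 1273 and 1294, a sum lower in every stiff tumour by count. The members were split, with a mean intron count higher for 19 and lower for 18. The median log2 fold change over the 38 tested for introns was 0.18, beside 0.04 over all intron genes. Adhesion and mechanosignalling genes had 122, 109 and 132 exonic variants against 131, 120 and 130, with 18 of 42 higher and 9 lower, and a share of total that was higher in every stiff tumour. Their introns had 1218, 1409 and 1359 against 1178, 1197 and 1111, lower in every stiff tumour by count, as for introns in general. The mean intron count was higher for 13 members and lower for 27. The median log2 fold change over the 39 tested for introns was 0.02, beside 0.04 over all intron genes. Rock2, a kinase of contractility, had 12, 7 and 6 against 5, 3 and 3, lower in every stiff tumour (edgeR adjusted p = 0.82). Piezo2, a stretch-activated channel, had 11, 1 and 7 against 2, 1 and 0.

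Mammary tumour drivers had 194, 192 and 209 exonic variants against 209, 192 and 121. Ccne1, which encodes cyclin E1 and is 2 places from Plekhf1 in the gene order, had 56, 62 and 73 in the soft tumours, 78 and 72 in A7 and A8, and 2 in A9. Without A9 the list's difference in mean turned from -24.3 to 2.17, and that of Ccne1 from negative to 11.3. Apc, a suppressor of Wnt signalling, had 14, 4 and 12 against 13, 0 and 1. Macrophage and myeloid genes had 23, 24 and 9 against 6, 14 and 6. By mean count, not scaled to the lower stiff totals, 0 of 20 members were higher and 13 lower. The median log2 fold change over the 10 tested was -0.66, beside 0.15 over all exonic genes. Itgam, the integrin chain CD11b, had 4, 8 and 3 against 0, 9 and 1, and Itgax, CD11c, 9, 1 and 1 against 1, 4 and 1. The exonic sums of the list overlapped (exact permutation p = 0.2). Its introns had 171, 247 and 190 against 163, 157 and 182, with 5 members higher and 10 lower, and overlapped too. Over the 17 members tested for introns the median log2 fold change was 0.15, beside 0.04 over all intron genes. Very long genes, which collect variants by their size, had 203, 262 and 238 exonic variants against 212, 198 and 240. Ttn, which encodes titin, was higher in every stiff tumour with 6, 5 and 7 against 14, 8 and 31, although the sign of its difference turned (to -2.33) with the median over transcripts. Without A9 the difference in mean went from 11.7 to 5.00 for Ttn and from -17.7 to -29.3 for very long genes. The same step took base excision repair from -0.333 to -1.67, mismatch repair from -4.67 to -2.17, end joining from 4.00 to 2.33, and the ferroptosis list from 2.33 to 3.83. Among list genes it took Fth1 from 4 to 7, Mdc1 from 2.00 to 3.17, Apc from -5.33 to -3.50 and Itgam from -1.67 to -0.500.

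By shares of total, tumours of one group on average resembled each other only slightly more than tumours of different groups. Likeness was measured as 1 minus the Bray-Curtis distance of exonic variants per gene, as shares of total, where 1 is identical. The mean was 0.709 within the soft group, 0.699 within the stiff group and 0.692 between groups, a difference within minus between of 0.0123 (exact permutation p = 0.1). The closest pair was A7 and A8 at 0.738. A9 lay between 0.643 and 0.683 with the other 5, which lowers both the stiff mean and the mean between groups. Apart from A9, pairs between the groups ran from 0.692 to 0.724 and pairs within the soft group from 0.704 to 0.718. A1 was closer to A7 (0.724) and A8 (0.718) than to A2 (0.704). With presence or absence of a variant in place of shares the difference was 0.00318 (exact permutation p = 0.3). The mean was then 0.514 within the soft group, but 0.500 within the stiff group, below the 0.504 between groups. With counts the difference was 0.00674 (exact permutation p = 0.1). Of 14405 genes with an exonic variant in any of the 6 tumours, 3434 had one in all 6 and 4658 in a single tumour.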

How the data were processed

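The authors deposited, per the file headers, 1 snpEff table per tumour with whole-number counts of variants per transcript, split by impact and effect; columns of start and stop codon changes are such counts too. The submitters' processing notes name GATK, SAMtools 1.19.2, BWA 2.2.1 and build GRCm39. Caller settings, filters and any matched normal: not given in the sources used here. Protein-coding rows were kept, the maximum over a gene's transcripts was taken, and a tumour's total is the sum of its 4 impact classes. Rows with a blank biotype (9.23% to 9.79% of rows) were left out. Per-gene and per-type counts were fitted with edgeR 4.0.16 (glmQLFit, offsets from the totals, Benjamini-Hochberg adjustment, threshold 0.05, minimum sums of 3 and 60), with DESeq2 1.42.0 as an alternative, and tested on simulated data. The SE of an edgeR fold change was computed as its size over the square root of F and is approximate. Groups were also compared by two-sided exact permutation tests. Where edgeR's dispersion trend could not be fitted, a common dispersion was used.

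The 6 tumours, the gene lists and the tests were chosen with earlier results of these data known. The genes named are Trp53; per class and direction, the 3 non-overlapping genes whose mean counts differ most; the 2 list members with the largest difference; and the 3 genes with most variants of each rare type. Some genes the rule names are not reported here. Genes that match a symbol pattern for large families or unnamed models were counted but not named by this rule, and other names were chosen after their values were seen. Alternatives changed the collapsing of transcripts, the denominator, the filter, the tool and the tumours included. The 2 tail samples were not analysed here.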

Additional observations from a re-analysis of the deposited data

How the results depend on the processing

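No paired analysis was possible because the soft and stiff tumours share no replicate numbers. Of the results that answer a comparison, 199 values under the alternatives stayed on the same side of the threshold or within 1.5 times, 12 gained calls and 7 moved. Of the other values under the alternatives, 1046 stayed the same, 8 became stronger, 91 moved and 70 reversed. For effect types, DESeq2 called 3 and edgeR without A9 called 5, so leaving out one tumour at a time gave 0 to 5. Genes called without the filter on low counts were 8 for 3′ UTR, 6 for intron, 9 for flanking and 45 for exonic variants; DESeq2 gave 16 for intron and 3 for flanking, and all 12 tumours in the fit gave 1 for flanking. Leaving out one tumour gave 0 to 6 calls for introns (6 without A2, 1 without A7) and 0 to 1 for flanks (1 without A7). Exonic genes without overlap, 493 by count, were 1297 by share of total and 818 to 1026 with one tumour left out, where fewer samples make separation easier.

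With equal library sizes, which compare counts, these log2 fold changes turned negative: 3′ UTR -0.19, premature start gain -0.10, 5′ UTR -0.12, downstream -0.16, upstream -0.16, frameshift -0.20, missense -0.13, synonymous -0.12, splice acceptor -0.15, splice donor -0.15, splice region -0.18, start lost -0.13, stop gained -0.14 and stop lost -0.11. With the coding total as denominator 3′ UTR was -0.048, downstream -0.017, upstream -0.015, frameshift -0.063, splice acceptor -0.0073, splice donor -0.0092 and splice region -0.043. With TMM, 3′ UTR was -0.032, downstream -0.0011, frameshift -0.047 and splice region -0.027. With the sum of effect columns, frameshift was -0.00027. With the median over transcripts, disruptive in-frame deletion was 0.0060, splice donor -0.0019 and start lost -0.022; with the transcript of the largest total, disruptive in-frame deletion was 0.0024 and non-coding transcript 0.11. A pair of alternatives was chosen after seeing the data. With only the counts above each gene's lowest of the 6 tumours, values were 0.13 for conservative in-frame deletion, 0.25 for conservative and 0.26 for disruptive in-frame insertion, 0.33 for disruptive in-frame deletion and 0.33 for non-coding transcript, and without the genes low in A9 the last was 0.0040. The cause of these reversals was not tested beyond the change of denominator.

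Leaving out one tumour reversed other types. Without A9, conservative in-frame insertion was 0.10, disruptive in-frame deletion 0.13, disruptive in-frame insertion 0.16, non-coding transcript 0.14 and splice donor -0.0040. Without A1, conservative in-frame insertion was 0.0015 and frameshift -0.0063. Without A2, non-coding transcript was 0.027, start lost -0.094 and stop lost -0.012. Without A3, disruptive in-frame deletion was 0.016, disruptive in-frame insertion 0.0041 and non-coding transcript 0.019. Without A7, frameshift was -0.073 and start lost -0.054, and without A8 frameshift was -0.082 and stop retained -0.11. The upper ends of these ranges were 0.21 for start lost (without A3), 0.30 for stop lost and 0.43 for stop retained (both without A1).

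Differences in mean exonic count also turned, in alternatives for lists chosen after seeing the data: base excision repair was 1.83 without A2, 0.833 without A3 and 1.83 without A7, mismatch repair 1.5 without A2, ferroptosis -0.167 without A7, drivers 2.17 without A9 and damage checkpoint -0.167 with the median over transcripts. With the median, Cntnap2 introns were 12.7, Ttn -2.33, Mdm4 -0.333 and Itgam 0.167. Rif1 and Xrcc6 were -0.333 and Ccne1 11.3 without A9, Mdc1 -0.333 without A8 and Itgax 1.00 without A1. The other ends of these ranges were -3.67 for base excision (without A1), -9.50 for mismatch repair (without A3), 3.83 for ferroptosis (without A9), and -41.8 for drivers, 1.67 for Xrcc6, 3.17 for Mdc1 and -26.7 for Ccne1 (without A7), and -3.00 for Itgax (without A2). Depth is unknown, and 3 tumours a group limit every test.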
